A study of Mus musculus with 30 samples.

Results

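The BCL2 family and p53 apoptosis genes are 10 listed genes that set whether a cell enters the mitochondrial pathway of cell death: Pmaip1, Bbc3, Bid, Bcl2l11, Bax, Bak1, Bcl2, Bcl2l1, Mcl1 and Trp53. They were chosen by gene symbol in the probe annotation, with the probe set of highest mean over all arrays standing for a gene. The rule used no measured change, but the list was drawn up with earlier results of these data known. A probe set with a single symbol was found for 8 of the 10, out of 19937 such genes in the series, and all 8 passed the filter on low values that left 15180 genes for testing. Bax and Trp53 were not analysed here. The 8 measured members are the BH3-only genes Pmaip1 (Noxa), Bbc3 (Puma), Bid and Bcl2l11 (Bim), the effector Bak1, and the anti-apoptotic genes Bcl2, Bcl2l1 (Bcl-xL) and Mcl1.

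In this pathway the effectors BAX and BAK1 permeabilise the outer mitochondrial membrane, which releases cytochrome c and activates caspases. Anti-apoptotic members such as BCL2, BCL-xL and MCL1 hold the effectors in check, and BH3-only proteins relieve that restraint or activate the effectors directly. The transcription factor p53, encoded by Trp53, induces several of these genes after DNA damage, Pmaip1 and Bbc3 among them. In the mouse gonad, apoptosis removes many germ cells during development, and loss of Bax spares germ cells that would otherwise die.

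The study measured primordial germ cells, from which oocytes and spermatozoa descend, on Affymetrix expression arrays, and asked how Polycomb repressive complex 1 (PRC1) acts on their sexual differentiation. Cells positive for the germ cell reporter Oct4(deltaPE)-GFP were sorted from dissociated gonads, and RNA from 500 sorted cells was PCR-amplified for each array. The 10 groups hold 3 arrays each. Rnf2delta (Ring1+;Rnf2delta) cells of females and males were taken at E11.5 and at E12.5, where E gives the embryonic day. Control (Ring1+;Rnf2+) cells of both sexes were taken at these stages and at E13.5. All carry the reporter, an intact Ring1 and a background labelled "mixed129/Sv and C57BL6J". E13.5 was sampled in controls alone. Rnf2 and Ring1 encode related ubiquitin ligases of PRC1, a complex that represses developmental genes and is found mostly at promoters rich in CG dinucleotides. How and in which cells the Rnf2 deletion was made, and which embryos or litters gave each sample, is not given in the sources used here. The p-values therefore reflect only how far these arrays spread within a group, and that spread may be technical.

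Values are log2 signals as the authors deposited them, where a difference of 1 is a doubling. Array medians lay between 2.52 and 2.66 and the 40th percentiles between 2.2 and 2.4, so Bbc3, Bak1 and Bcl2, which exceeded their array's 40th percentile on 22, 19 and 15 of 30 arrays, were measured near the low end of the scale. The other 5 members exceeded it on all 30 arrays. Of 12 germ cell markers, 12 exceeded it on every array. The 6 E12.5 female arrays stood apart, with a mean correlation to their own group of 0.964 to 0.978 across genes, against 0.983 to 0.99 for the other 24, and the fit gave them weights of 0.313 to 0.837, against 0.512 to 1.61. Log2 changes below come from 1 weighted limma fit of all arrays, given as change ± SE, and are differences of weighted group means. A call is an adjusted p below 0.05 over all 15180 genes. The Rnf2 probe set, which may lie outside the deleted part, was lower in Rnf2delta than in control samples by -1.13 ± 0.17 in E12.5 males (limma, adjusted p = 0.00015) and by -0.65 ± 0.097 over the mean of the 4 strata of stage and sex (adjusted p = 2.2e-05). It did not pass in E11.5 females (-0.62 ± 0.17, adjusted p = 0.072), E12.5 females (-0.52 ± 0.25, adjusted p = 0.36) or E11.5 males (-0.33 ± 0.16, adjusted p = 0.43), and in E11.5 males its arrays overlapped, at 4.01, 4.11 and 4.57 in Rnf2delta and 4.79, 4.13 and 4.7 in control samples.

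Promoters are shown for Bid, Bcl2l11, Bcl2 and Mcl1, 4 of the 5 members with a call in at least 1 comparison below (that of Pmaip1 is not shown here), because CG-rich promoters are the usual sites of PRC1. In the main fit these 4 were called with stage or sex and not with genotype. Each sequence runs 5′ to 3′ over 300 bases, from 250 before to 50 after the start, as RefSeq gives it on GRCm38.p6, with every CG dinucleotide in capitals. Bid lies at chr6:120916775-120917074 (minus strand), Bcl2l11 at chr2:128125788-128126087 (plus strand, the more upstream of 2 starts listed), Bcl2 at chr1:106714241-106714540 (minus strand) and Mcl1 at chr3:95658471-95658770 (plus strand).
Bid: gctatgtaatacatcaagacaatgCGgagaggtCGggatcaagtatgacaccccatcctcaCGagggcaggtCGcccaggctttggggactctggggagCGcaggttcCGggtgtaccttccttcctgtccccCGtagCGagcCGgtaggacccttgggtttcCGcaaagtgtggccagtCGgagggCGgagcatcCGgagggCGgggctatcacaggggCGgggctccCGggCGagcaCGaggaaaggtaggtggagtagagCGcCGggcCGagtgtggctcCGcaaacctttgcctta
Bcl2l11: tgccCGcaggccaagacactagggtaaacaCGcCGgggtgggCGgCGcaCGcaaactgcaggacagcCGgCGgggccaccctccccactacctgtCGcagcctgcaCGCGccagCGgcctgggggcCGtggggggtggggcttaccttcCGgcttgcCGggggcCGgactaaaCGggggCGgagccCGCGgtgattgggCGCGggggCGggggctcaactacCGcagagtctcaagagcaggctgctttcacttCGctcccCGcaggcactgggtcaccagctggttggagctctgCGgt
Bcl2: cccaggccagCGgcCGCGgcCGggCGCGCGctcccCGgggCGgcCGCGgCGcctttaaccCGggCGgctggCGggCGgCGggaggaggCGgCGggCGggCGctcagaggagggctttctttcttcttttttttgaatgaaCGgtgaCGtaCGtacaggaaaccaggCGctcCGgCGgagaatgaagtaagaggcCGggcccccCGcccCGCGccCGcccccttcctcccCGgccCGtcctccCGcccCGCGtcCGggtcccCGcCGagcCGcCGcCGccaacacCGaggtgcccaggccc
Mcl1: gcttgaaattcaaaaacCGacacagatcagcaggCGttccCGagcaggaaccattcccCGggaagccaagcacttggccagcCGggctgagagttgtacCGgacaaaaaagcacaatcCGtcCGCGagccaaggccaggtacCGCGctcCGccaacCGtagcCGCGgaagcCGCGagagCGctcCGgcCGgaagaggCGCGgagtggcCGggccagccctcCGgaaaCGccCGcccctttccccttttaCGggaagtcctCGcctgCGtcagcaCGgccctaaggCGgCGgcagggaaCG

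The Bcl2 promoter holds 44 CG dinucleotides, a number that 2.25% of 32851 promoters of this length reach, and the Mcl1 promoter holds 33 (8.56%). The Bcl2l11 promoter holds 27 (15.5%) and the Bid promoter 22 (23.1%), against a median of 7 over all promoters. The GC box GGGCGG, searched on both strands, occurs 7 times at Bcl2, 3 times each at Bcl2l11 and Bid and 1 time at Mcl1, and 35.7% of promoters hold at least 1. The p53 half-site, searched by its consensus on both strands, matched none of the 4 windows and 8.36% of all promoters. These counts describe letters in a window and say nothing of binding.

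Pmaip1 varied most among the members. Its group means spanned 3.31 on the log2 scale, against 0.9 for Bcl2l11, 0.68 for Bcl2, 0.59 for Bid and 0.32 to 0.49 for Bbc3, Bak1, Bcl2l1 and Mcl1. An F-test over the 10 groups (limma, Benjamini-Hochberg over all genes) called 2 of the 8 members, where it called 51.4% of all genes tested. These were Pmaip1 (adjusted p = 1.35e-11) and Bcl2l11 (adjusted p = 7.8e-05). Of the other 6, Bcl2l1, Mcl1 and Bid lay just above the threshold (adjusted p = 0.0512, 0.0562 and 0.0596), and Bcl2, Bak1 and Bbc3 had 0.0851, 0.175 and 0.591. RNA came from pools of sorted cells, so a smaller share of cells expressing a gene and less RNA per cell cannot be told apart in any of these values.

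Pmaip1 encodes NOXA, a BH3-only protein that binds MCL1 and promotes its degradation. The 3 arrays of each group read 3.44, 3.34 and 3.65 in Rnf2delta E11.5 females, against 2.86, 2.88 and 2.88 in control E11.5 females. Rnf2delta E11.5 males had 3.88, 4.85 and 4.81, against 3.13, 3.29 and 3.03 in control E11.5 males. In both sexes at E11.5 the genotypes did not overlap. Rnf2delta E12.5 females had 3.69, 3.12 and 3.51, against 3.17, 2.99 and 3.3 in control E12.5 females. Rnf2delta E12.5 males had 5.79, 6.05 and 5.4, against 5.11, 5.53 and 4.37 in control E12.5 males. In both sexes at E12.5 the genotypes overlapped. At E13.5 control females had 3.37, 2.78 and 3.11, against 5.44, 6.35 and 6.76 in control males, with every male array higher.

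**Figure D1:**
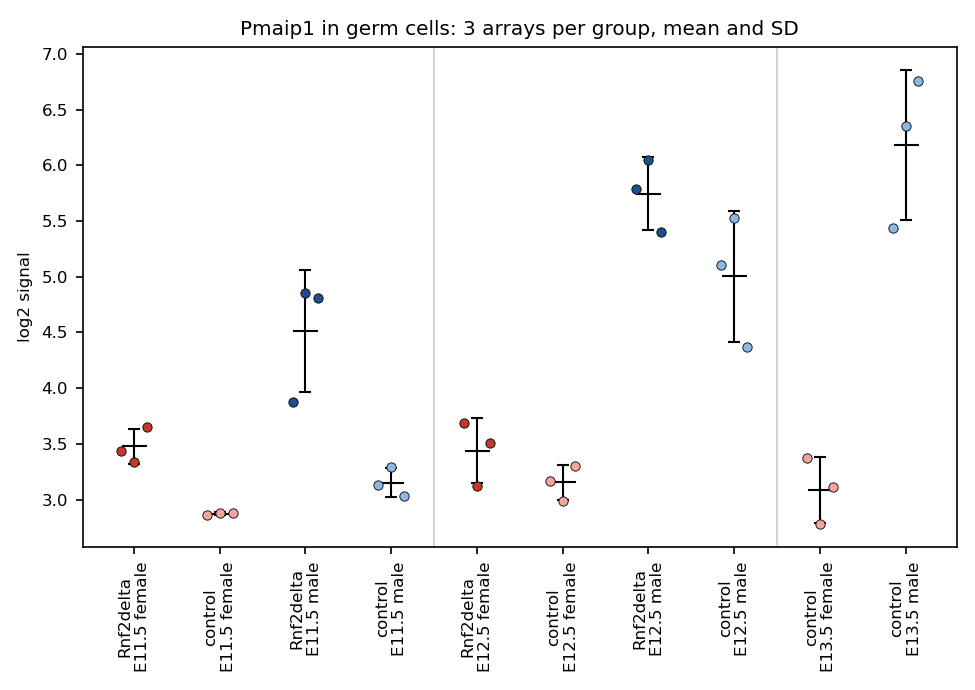
Pmaip1 log2 signal (vertical axis) on each array of the 10 groups (horizontal axis), with group mean (long bar) and SD (error bar) over 3 arrays, and grey lines between stages. The 5 female groups and the control E11.5 males lie between 2.78 and 3.69, and the other 4 male groups lie between 3.88 and 6.76.

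Ordered by mean, 6 groups formed a low block: control E11.5 females (2.88), control E13.5 females (3.09), control E11.5 males (3.15), control E12.5 females (3.15), Rnf2delta E12.5 females (3.44) and Rnf2delta E11.5 females (3.48). Each neighbour in this block overlapped the next. A gap of 1.04 without overlap separated them from Rnf2delta E11.5 males (4.51), which were followed, with overlap at each step, by control E12.5 males (5), Rnf2delta E12.5 males (5.75) and control E13.5 males (6.18). Every group of females was thus in the low block, and the single male group there was the control at E11.5.

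In control males Pmaip1 rose over the 3 stages. It averaged 3.15 ± 0.13 at E11.5, 5 ± 0.592 at E12.5 and 6.18 ± 0.673 at E13.5 (SD, n = 3 each). The change from E11.5 was 1.98 ± 0.25 at E12.5 (3.95-fold, limma, adjusted p = 2.7e-05) and 3.06 ± 0.25 at E13.5 (8.33-fold, adjusted p = 8.9e-10), and in both comparisons only 1 of 15180 genes had a larger positive change. Pmaip1 was the only member called at E12.5 against E11.5 (1 of 8, against 8.18% of all genes). There the arrays of Pmaip1 and Bcl2 did not overlap (2 of 8, against 25.2% of all genes). Between E12.5 and E13.5 the change was 1.08 ± 0.26 (2.11-fold, adjusted p = 0.015), again the 1 call among 8 members (3% of all genes), although its arrays overlapped and those of Bak1, Bcl2 and Bcl2l1 did not (3 of 8, against 19.3% of all genes). That last call was lost without control E12.5 male replicate 3 (0.88, adjusted p = 0.063), control E13.5 male replicate 2 (0.98, 0.093) or control E13.5 male replicate 3 (0.78, 0.16), and in a fit of the compared groups alone (adjusted p = 0.12). These comparisons share control samples.

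In control females no change of Pmaip1 with stage passed. The change from E11.5 was 0.26 ± 0.36 at E12.5 (95% interval -0.47 to 0.99, adjusted p = 0.73) and 0.21 ± 0.27 at E13.5 (-0.34 to 0.77, adjusted p = 0.61). No member was called at E12.5 against E11.5 in females, where 10.6% of all genes were. At an unadjusted p below 0.05 it was 0 of 8 members and 23.3% of all genes, and the arrays of Pmaip1 and Bcl2 did not overlap (2 of 8, against 27.2%). The difference between sexes in the stage effect was itself tested, as female minus male: it was -1.72 ± 0.44 at E12.5 (limma, adjusted p = 0.026) and -2.85 ± 0.37 at E13.5 (adjusted p = 8.4e-06). Pmaip1 was the 1 member of 8 called in each, where 2.73% and 10.6% of all genes were called. The E13.5 call held in each of 20 alternatives. The E12.5 call was lost in 8 of 19, each time on leaving out 1 array: control E11.5 male replicate 3, control E11.5 female replicates 1 or 2, control E12.5 male replicates 1 or 2, or any of the 3 control E12.5 females (changes of -1.34 to -1.78, adjusted p up to 0.13).

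Set against each other, the sexes of the controls diverged in Pmaip1 as the stages advanced. Female minus male was -0.26 ± 0.26 at E11.5 (limma, adjusted p = 0.76), -1.98 ± 0.35 at E12.5 (adjusted p = 0.00029) and -3.11 ± 0.26 at E13.5 (adjusted p = 6.3e-10). Even at E11.5 the female arrays all lay below the male arrays, a separation that 3 of 8 members and 16.3% of all genes showed there. No member was called at E11.5 (0.771% of all genes; at an unadjusted p below 0.05, 0 of 8 members and 12.7% of all genes). Pmaip1 was the only 1 of 8 at E12.5 (12.4% of all genes), and with Bcl2 the only member without overlap (2 of 8, against 28.7%). At E13.5 only 6 of 15180 genes were lower in females by more. In Rnf2delta cells female minus male was -1.01 ± 0.26 at E11.5 (adjusted p = 0.056) and -2.44 ± 0.33 at E12.5 (adjusted p = 8.5e-06, 1 of 8 members called against 12.7% of all genes). Pmaip1 was the 1 member of 8 without overlap at each stage (15% and 25.8% of all genes). No member was called at E11.5 (0.711% of all genes; 1 of 8 members and 10.4% of all genes at an unadjusted p below 0.05). The E11.5 value passed with quantile normalization (-1.03, adjusted p = 0.025) and without Rnf2delta E11.5 male replicate 1 (-1.37, adjusted p = 0.004). Within Rnf2delta, E12.5 minus E11.5 was -0.08 ± 0.31 in females (adjusted p = 0.9) and 1.35 ± 0.27 in males (2.55-fold, adjusted p = 0.0067, 1 of 8 members against 2.92% of all genes). In the males Pmaip1, Bcl2l11 and Mcl1 did not overlap (3 of 8, against 17.2% of all genes). In the females no member was called or free of overlap (16.3% and 31.9% of all genes), and Mcl1 was the 1 of 8 at an unadjusted p below 0.05 (28.6% of all genes). The male call was lost without Rnf2delta E11.5 male replicate 1 (0.99, adjusted p = 0.12), Rnf2delta E12.5 male replicate 1 (1.25, 0.19) or Rnf2delta E12.5 male replicate 2 (1.12, 0.23), and in a fit of the compared groups alone (1.35, adjusted p = 0.052).

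Rnf2delta E11.5 males had more Pmaip1 than control E11.5 males. The difference was 1.33 ± 0.25 (2.51-fold, limma, adjusted p = 0.0026), a call that held in each of 14 alternatives with an adjusted p of at most 0.03. Pmaip1 was the 1 member of 8 called, where 2.27% of all genes were, and 19 of 15180 genes had a larger positive change. Its arrays and those of Bid did not overlap (2 of 8, against 15.6% of all genes). The other strata gave the same sign without a call: 0.59 ± 0.26 in E11.5 females (adjusted p = 0.44), 0.24 ± 0.39 in E12.5 females (adjusted p = 0.86) and 0.7 ± 0.27 in E12.5 males (adjusted p = 0.23). No member was called in these 3 strata (1.03%, 1.67% and 1.88% of all genes). At an unadjusted p below 0.05 it was 1 of 8 members in each, Pmaip1 in the first and last and Bcl2 in E12.5 females, against 10%, 13.6% and 11.9% of all genes. Averaged over the 4 strata, Rnf2delta exceeded control by 0.72 ± 0.15 (1.64-fold, adjusted p = 0.0016), which held in each of 31 alternatives. Pmaip1 was the 1 call among 8 members in that mean, against 10.6% of all genes.

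Whether the genotype effect on Pmaip1 differed between strata was tested directly, and no difference passed. Female minus male in the genotype effect was -0.74 ± 0.37 at E11.5 (95% interval -1.49 to 0.01, limma, adjusted p = 1) and -0.45 ± 0.48 at E12.5 (-1.43 to 0.52, adjusted p = 0.85). E12.5 minus E11.5 was -0.34 ± 0.48 in females (-1.31 to 0.63, adjusted p = 0.93) and -0.63 ± 0.37 in males (-1.39 to 0.13, adjusted p = 1). None of the 8 members was called in any of these 4 tests, in which 0, 5, 6 and 0 of 15180 genes were (0%, 0.0329%, 0.0395% and 0%). At an unadjusted p below 0.05 the counts were 0, 1, 1 and 0 of 8 members, the 1 being Bcl2, against 3.68%, 8.61%, 7.65% and 4.72% of all genes. The size of the E11.5 male rise is therefore not shown to be particular to that stratum.

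**Figure D2:**
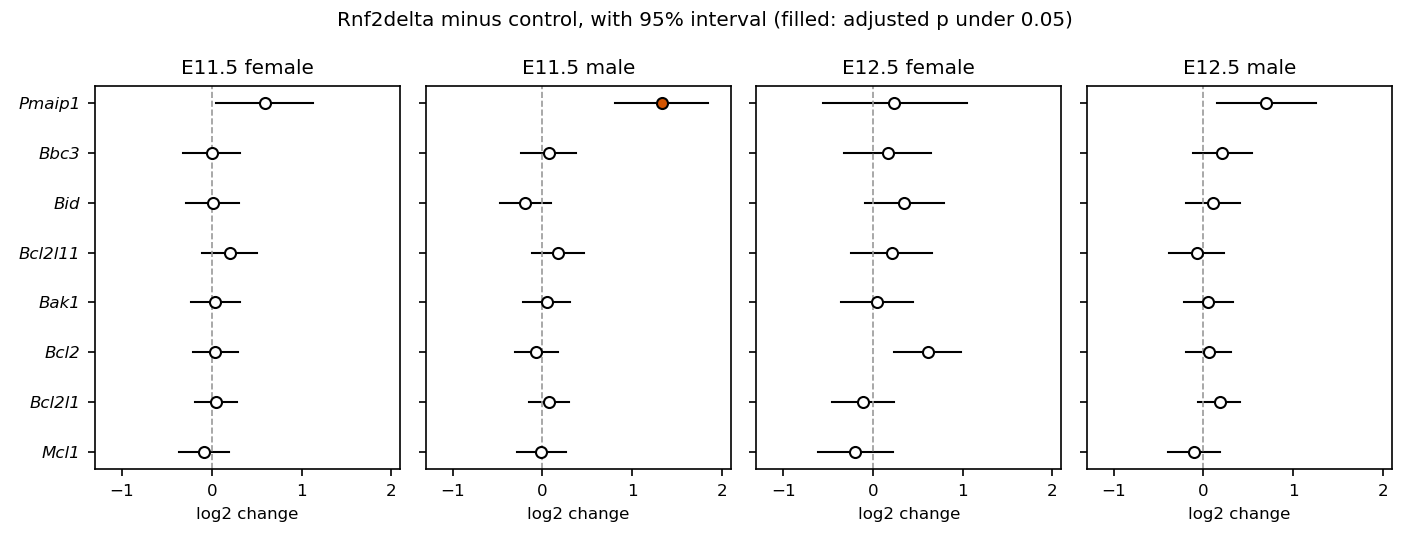
Log2 change in Rnf2delta against control (horizontal axis) of the 8 measured members (rows) in the 4 strata, with 95% intervals as lines and filled points for an adjusted p below 0.05. The single filled point is Pmaip1 in E11.5 males at 1.33, and the other members lie between -0.2 and 0.61.

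Markers of other cells were set beside Pmaip1. The summed linear signal of 9 supporting cell markers lay between 54.2 and 77.3 in every group, against 4900 to 8600 for the 12 germ cell markers. Much of the germ cell sum came from Dppa5a, at a log2 signal of 11.47 to 12.7. The mean log2 signal of the supporting markers was 2.51 to 2.96, close to the array medians of 2.52 to 2.66. For the germ cell markers it was 6.99 to 7.58. These sums do not measure purity. One of the 9, the Sertoli cell hormone gene Amh, rose with Pmaip1 at E13.5 against E11.5 in control males (0.97 ± 0.23, limma, adjusted p = 0.0033) and was lower in E13.5 females than males (-0.85 ± 0.24, adjusted p = 0.01). The E13.5 male arrays with 5.44, 6.35 and 6.76 for Pmaip1 had 3.46, 2.24 and 3.83 for Amh. Control E11.5 males ranged from 2.15 to 2.32 for Amh. Cbln1, another of the 9, read 2.66, 2.73 and 2.48 on the control E13.5 male arrays. In control E11.5 males it read 3.11, 2.67 and 2.77. The summed supporting signal in control males was 55 to 66.2 at E13.5 and 54.3 to 77.3 at E11.5. At E11.5 Amh was 2.43, 2.47 and 2.84 in Rnf2delta males and 2.15, 2.19 and 2.32 in control males. These arrays did not overlap, as was so for 15.6% of all genes, and Amh was not called. At E12.5 Amh was 2.6, 2.39 and 2.56 in Rnf2delta males. In control E12.5 males it was 2.5, 2.81 and 3.5, on arrays with 5.11, 5.53 and 4.37 for Pmaip1. For the genotype effect, 1 of the 9, Cbln1, rose in Rnf2delta E11.5 females (0.86 ± 0.2, limma, adjusted p = 0.023) and males (0.92 ± 0.19, adjusted p = 0.0069). Of all genes 1.03% and 2.27% were called there. At E12.5 Cbln1 read 3.87, 3.42 and 3.4 in Rnf2delta males, against 2.98, 3.16 and 2.44 in control males. Rnf2delta E12.5 females had 3.59, 3.72 and 2.84 for Cbln1, against 3.33, 3.14 and 3.14 in control females. In E11.5 males the summed supporting signal was 64.1 to 74.3 in Rnf2delta and 54.3 to 77.3 in control samples. Among stress genes Fosb rose in Rnf2delta E11.5 females (0.83), and among endothelial markers Egfl7 rose in the mean of the 4 strata (0.31). Erythroid signal stood out on Rnf2delta E12.5 male replicate 3, where the globin gene Hbb-y read 9.71, against 1.85 and 1.88 on replicates 1 and 2. Pmaip1 read 5.4 on replicate 3, against 5.79 and 6.05. The markers Lum, Cyp11a1, Cyp17a1, Emcn, Adgre1 and Ptprc exceeded the 40th percentile on 0 of 30 arrays. Others of the same lists went the other way. Gata4, Cbln1, Col1a1, Egfl7 and Alas2 exceeded it on all 30, and Sox9, Pdgfra and Nr5a1 on 29. The part of these markers in the Pmaip1 differences was not tested.

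Among the other BH3-only genes, Bcl2l11 fell with stage in controls of both sexes and Bid in control males. Bcl2l11 encodes BIM, which binds all anti-apoptotic members and can activate the effectors. Its arrays in control females were 3.8, 3.72 and 3.48 at E11.5, 3.41, 3.51 and 3.53 at E12.5 and 2.93, 2.93 and 3.05 at E13.5. At E13.5 against E11.5 it fell by 0.7 ± 0.15 in females (limma, adjusted p = 0.00055), without overlap and in each of 14 alternatives. Control males had 3.98, 3.46 and 3.53 at E11.5, 3.51, 3.38 and 3.08 at E12.5 and 3.3, 3.12 and 3.3 at E13.5. Their fall at E13.5 against E11.5 was -0.39 ± 0.14 (adjusted p = 0.048), a call lost in 10 of 14 alternatives, among them those without control E11.5 male replicate 1 (-0.25, adjusted p = 0.26) or control E13.5 male replicates 1, 2 or 3 (-0.42, -0.33 and -0.42, adjusted p = 0.072, 0.16 and 0.079). The sexes were not shown to differ in this fall (female minus male -0.31 ± 0.21, adjusted p = 0.39). Rnf2delta cells had Bcl2l11 at 3.9, 3.86 and 3.85 in E11.5 females and 4.04, 3.66 and 3.67 in E11.5 males, and the change against control was 0.2 ± 0.15 in females (adjusted p = 0.77) and 0.17 ± 0.14 in males (adjusted p = 0.72). The E11.5 females did not overlap their controls, which was so for 2 of 8 members and 14.2% of all genes.

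Bid encodes a BH3-only protein that caspase-8 cleaves to link death receptors to mitochondria. Control males had 4.75, 4.62 and 4.54 at E11.5, 4.6, 4.44 and 4.05 at E12.5 and 4.23, 3.75 and 4.17 at E13.5, so the first and last stages did not overlap. Bid fell by 0.57 ± 0.14 at E13.5 against E11.5 in males (limma, adjusted p = 0.0034), in each of 14 alternatives. In control females the same change was -0.01 ± 0.15 (adjusted p = 0.97), and the difference between sexes, 0.56 ± 0.2, did not pass (adjusted p = 0.071; 0.047 without control E13.5 male replicate 1). At E13.5 control females, at 4.42, 4.34 and 4.55, lay above control males, and the difference was 0.39 ± 0.14 (adjusted p = 0.045). That call was lost in 8 of 14 alternatives, among them those without control E13.5 male replicate 2 (0.24, adjusted p = 0.28) or control E13.5 female replicates 1, 2 or 3 (0.39, 0.43 and 0.32, adjusted p = 0.09, 0.058 and 0.18). Rnf2delta minus control ranged from -0.19 in E11.5 males to 0.35 in E12.5 females, with no call.

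Bbc3, which encodes PUMA, a strong p53-induced killer of many cell types, had no call in any of 24 comparisons. Its arrays lay between 1.99 and 3.27, and both extremes belonged to control E12.5 females, which had 3.27, 2.47 and 1.99. Rnf2delta minus control was 0 ± 0.16 in E11.5 females, 0.07 ± 0.15 in E11.5 males, 0.17 ± 0.24 in E12.5 females and 0.21 ± 0.16 in E12.5 males. Only in the last of these did the arrays not overlap (1 of 8 members, against 14.6% of all genes). With the signal near the low end, changes of this gene are compressed, and a p that misses the threshold does not show equal levels. The same holds for Bak1, the 1 effector measured, whose arrays lay between 1.99 and 2.7. Bak1 had no call in 24 comparisons, and Rnf2delta exceeded control by 0.04 to 0.05 in the 4 strata. Control E13.5 males, with 2.04, 1.99 and 2.17, were the lowest group, and lay below the control E12.5 males (2.28, 2.25 and 2.3) by -0.2 ± 0.13 (adjusted p = 0.51).

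Among the anti-apoptotic genes Mcl1 and Bcl2 had 1 call each in 24 comparisons and Bcl2l1 none. Mcl1 encodes a short-lived protein that many cells need to survive. Control females had 6.01, 6.49 and 6.03 at E11.5, 5.8, 6.09 and 5.97 at E12.5 and 5.84, 5.51 and 5.72 at E13.5, and the first and last stages did not overlap. Mcl1 fell by 0.52 ± 0.14 at E13.5 against E11.5 in females (limma, adjusted p = 0.0046). The call was lost without control E11.5 female replicate 2 (-0.33, adjusted p = 0.13) and held in the other 13 alternatives. In males the change was -0.09 ± 0.13 (adjusted p = 0.69), and the difference between sexes was not called (-0.43 ± 0.19, adjusted p = 0.16). At E13.5 control females lay below control males, at 6, 6.05 and 6.02, without overlap but without a call (-0.33 ± 0.13, adjusted p = 0.075).

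Bcl2 encodes the founding anti-apoptotic protein of the family and was measured near the low end. Rnf2delta E12.5 females had 2.85, 2.26 and 2.53, against 1.86, 2.04 and 1.7 in control E12.5 females, with no overlap, which 1 of 8 members and 17.7% of all genes showed. The change was 0.61 ± 0.18 and was not called (limma, adjusted p = 0.083), while with equal array weights it passed (0.68, adjusted p = 0.0018). In the other strata Bcl2 changed by -0.07 to 0.06. Control E13.5 females had 2.38, 2.37 and 2.33 and lay above the same E12.5 controls by 0.48 ± 0.16 (adjusted p = 0.043, 1 of 8 members against 14.4% of all genes). With Bcl2l11 and Bcl2l1 it was 1 of 3 members of 8 without overlap there (30.2% of all genes). That call was lost on leaving out any 1 of the 6 arrays (0.41 to 0.58, adjusted p = 0.063 to 0.25) and in 2 fits of the compared groups alone, so 8 of 12 alternatives ended it. Both differences rest on the control E12.5 females, which are among the arrays that stood apart.

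Bcl2l1 encodes BCL-xL, and mice with reduced Bcl2l1 lose germ cells. Control E13.5 females had 4.47, 4.25 and 4.3 and control E13.5 males 4.36, 4.27 and 4.3, and in both sexes these arrays lay above all of the E11.5 and E12.5 controls. No change was called: at E13.5 against E11.5 it was 0.28 ± 0.12 in females (limma, adjusted p = 0.063) and 0.27 ± 0.11 in males (adjusted p = 0.074), and at E13.5 against E12.5 in males 0.39 ± 0.11 (adjusted p = 0.05 after rounding, above the threshold). Quantile normalization brought the first and second past it (0.33, adjusted p = 0.023, and 0.32, adjusted p = 0.031), while the mean of a gene's probe sets and a stricter filter on low values brought the third (adjusted p = 0.049 and 0.03). Bcl2l1 has 1 probe set, so the mean of probe sets left its values as they were and acted only through other genes. Rnf2delta minus control was -0.11 to 0.18.

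**Figure D3:**
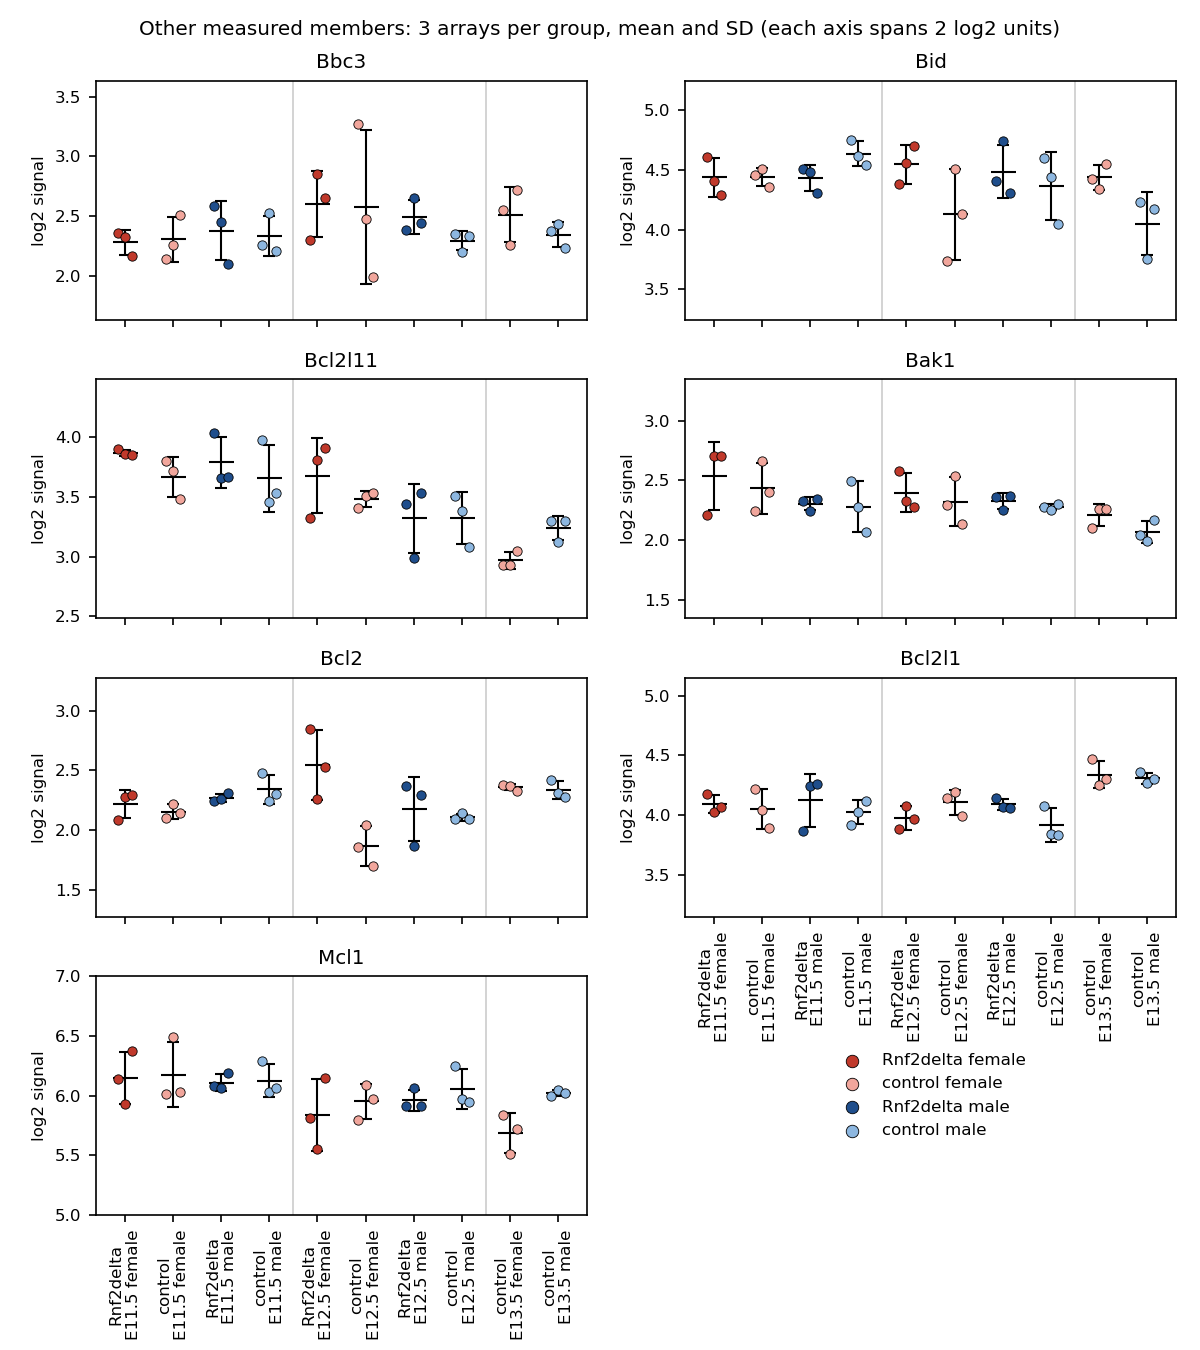
Log2 signal (vertical axis, spanning the same width in each panel) of the 7 measured members other than Pmaip1 on each array of the 10 groups (horizontal axis), with group mean (long bar) and SD (error bar) over 3 arrays. Bcl2l11 is lowest in the control E13.5 females at 2.93 to 3.05, and Bbc3 spreads most in the control E12.5 females at 1.99 to 3.27.

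Counted over members, E13.5 against E11.5 gave 2 calls of 8 in control females, Bcl2l11 and Mcl1, both lower, where 31% of all genes were called. In control males 3 of 8 were called, Pmaip1 higher and Bid and Bcl2l11 lower, where 19% of all genes were. Female against male at E13.5 gave 2 calls of 8, Pmaip1 lower and Bid higher, against 22.8% of all genes. In each of these 3 comparisons the arrays of 4 of 8 members did not overlap, beside 41.2%, 33.8% and 36% of all genes. With 8 members, these counts are not read as different from the background. The 3 comparisons share control samples. Median changes over the 8 members were 0.0938, -0.0451 and 0.0261, against -0.000213, -0.0142 and 0.00846 over all genes.

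**Figure D4:**
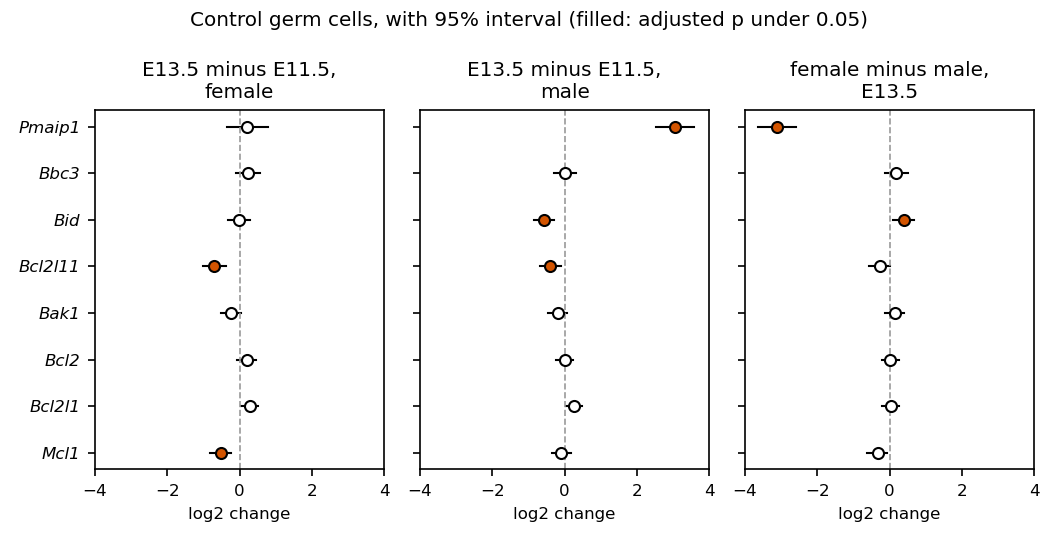
Log2 change (horizontal axis) of the 8 measured members (rows) in control germ cells at E13.5 against E11.5 in females and in males, and in females against males at E13.5, with 95% intervals as lines and filled points for an adjusted p below 0.05. Pmaip1 lies at 0.21, 3.06 and -3.11, while the other members stay between -0.7 and 0.39.

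The wider pathway was read from lists of its genes. Of 29 tested p53 target genes, the list that includes Pmaip1 and Bbc3, Pmaip1 was the 1 called with genotype in E11.5 males (2.27% of all genes). None of the 29 was called in E11.5 females, E12.5 females or E12.5 males, where 1.03%, 1.67% and 1.88% of all genes were, and Pmaip1 had 0.59, 0.24 and 0.7 there. Counts this low are near the background. In the mean of the 4 strata Pmaip1 rose and Tigar, a regulator of glucose breakdown, fell by 0.31 ± 0.088 (limma, adjusted p = 0.018; up to 0.12, without control E12.5 female replicate 3). The median change over the list in that mean was 0.041, against 0.0119 over all genes. Of 17 genes of the p53 family and its regulators, Cdkn2a, which encodes the MDM2 inhibitor ARF and the cell cycle inhibitor p16, rose in Rnf2delta E11.5 females (0.94 ± 0.17, adjusted p = 0.0028) and E11.5 males (0.67 ± 0.17, adjusted p = 0.027). Single omissions ended these calls, in females without control E11.5 female replicate 2 (adjusted p = 0.058), in males without control E11.5 male replicates 1, 2 or 3 or Rnf2delta E11.5 male replicates 2 or 3 (up to 0.11). Equal array weights ended the male call as well (adjusted p = 0.15). In E12.5 females Atr, a DNA damage kinase gene, rose by 0.84 ± 0.22 (adjusted p = 0.043), a call lost in 8 of 13 alternatives, among them every omission of 1 compared array except Rnf2delta E12.5 female replicate 3 (adjusted p up to 0.29). Over the 4 strata, where 10.6% of all genes were called, 3 of the 17 rose and none fell: Cdkn2a (0.64 ± 0.099, adjusted p = 3.7e-05), Atr (0.39 ± 0.084, adjusted p = 0.0022) and Ppp1r13b, which encodes the p53 partner ASPP1 (0.27 ± 0.083, adjusted p = 0.033, lost in 12 of 31 alternatives with an adjusted p up to 0.14). In 9 of the 12 a single array was left out: Rnf2delta E11.5 male replicate 2, control E11.5 male replicate 2, Rnf2delta E11.5 female replicate 1, Rnf2delta E12.5 male replicates 1 or 2, control E12.5 male replicate 2, Rnf2delta E12.5 female replicates 1 or 2 or control E12.5 female replicate 3.

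Of 20 genes of the apoptosome, caspases and their inhibitors, none was called in a single stratum (1.03% to 2.27% of all genes). In the mean of the 4 strata, beside 10.6% of all genes, 3 rose: the executioner caspase gene Casp6 (0.39 ± 0.11, limma, adjusted p = 0.022), Diablo (0.33 ± 0.07, adjusted p = 0.0015) and Htra2 (0.32 ± 0.088, adjusted p = 0.016), whose products leave mitochondria and oppose inhibitors of apoptosis. The Casp6 call was lost in 4 of 31 alternatives, without Rnf2delta E12.5 male replicates 1 or 2, control E12.5 female replicate 1 or Rnf2delta E12.5 female replicate 1 (adjusted p up to 0.088), and that of Htra2 without the last of these (0.057). Among 15 germ cell survival factors, the growth factor receptor gene Igf1r rose in Rnf2delta E11.5 females (1.05 ± 0.2, adjusted p = 0.0048), E11.5 males (1.15 ± 0.19, adjusted p = 0.00067), E12.5 females (1.35 ± 0.3, adjusted p = 0.015) and E12.5 males (1.23 ± 0.21, adjusted p = 0.00048). The E11.5 male call held in each of its alternatives, while omission of control E11.5 female replicate 2, of Rnf2delta or control E12.5 female replicates 1 or 2, or of Rnf2delta E12.5 male replicates 1 or 2 ended the others (adjusted p up to 0.074, 0.11 and 0.11). In the mean of the 4 strata Igf1r (1.19, adjusted p = 1.4e-08) and the receptor gene Met (0.56 ± 0.14, adjusted p = 0.0067) rose and Dppa3 fell by 0.28 ± 0.074 (adjusted p = 0.012), 3 of 15 beside 10.6% of all genes. The 4 tested anti-apoptotic and 2 tested effector genes of the wider lists, Bax not among them, had no call in any of the 4 strata.

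The same lists were read with stage, first in control females. At E13.5 against E11.5, 7 of the 17 p53 regulators rose and 3 fell, led by Atr (1.49 ± 0.15, limma, adjusted p = 1.2e-08), Atm (0.95 ± 0.16, adjusted p = 2.2e-05) and Chek1 (0.93 ± 0.13, adjusted p = 2e-06), kinases of the DNA damage response that also act in meiosis, and Cdkn2a (0.87 ± 0.18, adjusted p = 0.00032). Of the 29 p53 targets 4 rose and 8 fell, with Plk3 at -1.67 ± 0.19 (adjusted p = 8.2e-08), Ddb2 at 0.93 ± 0.24 (adjusted p = 0.0037), Ei24 at 0.88 ± 0.15 (adjusted p = 2.3e-05) and Ercc5 at 0.88 ± 0.14 (adjusted p = 1e-05). Of 20 apoptosome and caspase genes 6 rose and 4 fell, led by Casp6 (1.86 ± 0.2, adjusted p = 3.5e-08), Diablo (0.85 ± 0.13, adjusted p = 4.9e-06) and Htra2 (-0.8 ± 0.16, adjusted p = 0.00022). Of 8 BH3-only genes 2 fell, Bcl2l11 and Bad (-1.02 ± 0.17, adjusted p = 2.1e-05), which links growth factor signals to BCL-xL. Here 31% of all genes were called. The dissociation stress genes Dusp1, Zfp36 and Ier2 fell beside them (-1.06, -0.82 and -0.74), 3 of 9 tested, with summed signals of 73.1 to 86.6 at E13.5 and 104 to 135 at E11.5. The erythroid gene Alas2 fell too (-0.46), and the part of these genes in the counts was not tested.

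In control males at E13.5 against E11.5, where 19% of all genes were called, 4 of the 17 p53 regulators rose and none fell: Atr (0.7 ± 0.14, limma, adjusted p = 0.00059), Chek1 (0.57 ± 0.12, adjusted p = 0.001), Cdkn2a (0.55 ± 0.16, adjusted p = 0.018) and Atm (0.48 ± 0.14, adjusted p = 0.019). The Cdkn2a and Atm calls were lost in 4 of 14 alternatives each (adjusted p up to 0.083 and 0.1), among them omission of control E13.5 male replicate 3 for both, control E11.5 male replicate 3 or control E13.5 male replicate 2 for Cdkn2a, and control E11.5 male replicate 1 or control E13.5 male replicate 1 for Atm. Of the 29 p53 targets 2 rose, Pmaip1 and Ei24 (0.56 ± 0.14, adjusted p = 0.0037), and 5 fell, with Gadd45a at -1.12 ± 0.26 (adjusted p = 0.0026). Of the 20 apoptosome and caspase genes 2 rose and 2 fell, the fallen ones being Htra2 (-0.71 ± 0.15, limma, adjusted p = 0.00088) and Parp1 (-0.7 ± 0.14, adjusted p = 0.00046). Of the risen ones, Diablo lost its call in each of 6 omissions of 1 array (0.35 to 0.37, adjusted p = 0.056 to 0.084). The other, Birc2, lost its call in 2 of 6 omissions (0.39 to 0.55, adjusted p up to 0.095). The Pmaip1 rise of 3.06 was thus set in a list whose median change was -0.111, against -0.0142 over all genes. Beside it the stress genes Ier2 and Dusp1 (-0.84 and -0.77), the endothelial markers Egfl7 and Tek (-0.79 and -0.59) and Nr5a1 of steroidogenic cells (-0.52) fell, and their part was not tested. Female against male at E13.5, where 22.8% of all genes were called, gave 4 of 29 p53 targets higher and 10 lower, with Pmaip1 at -3.11, Ddb2 at 1.23 ± 0.23 (adjusted p = 2e-04), Gadd45a at 1.12 ± 0.27 (adjusted p = 0.0025) and Gpx1 at -1.09 ± 0.11 (adjusted p = 1.7e-08). Casp6 was higher in females there by 1.22 ± 0.19 (adjusted p = 2.1e-05).

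Genes whose pattern over the 30 arrays was most like that of a member were found by Pearson correlation among all genes tested, as a description over groups that share conditions. Most like Pmaip1 were the transcription factor gene Otx2 (r = 0.912), the cargo receptor gene Lman1 (r = 0.899) and Tgif1, a repressor gene of TGF-beta signalling (r = 0.897). Otx2 had a mean log2 signal of 2.67 in control E13.5 females and 5.1 in control E13.5 males, and 2.64 and 3.26 in the same sexes at E11.5. Most like Bcl2l11 were the metallothionein genes Mt1 (r = 0.856) and Mt2 (r = 0.854) and Cnn3 (r = 0.842), which encodes an actin-binding protein. Most like Bcl2 were Tpra1 (r = 0.718), Ptpdc1 (r = 0.714) and Atp9b (r = 0.703), lower values over a member measured near the low end.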

How the data were processed

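Expression was measured in 30 samples, 1 array each, in 10 groups of 3. The authors deposited log2 signals for 34760 probe sets. Per the submitters' processing notes the tools included R 2.15 and affy 1.36. Background correction, probe summary, normalization method and genome build: not given in the sources used here. The close array medians show that the deposited log2 values were already normalized. The number of arrays limits the precision, and signals near the low end compress changes. No batch was tested, as none is named in the labels.

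Gene symbols are those of the platform annotation, brought up to date by Entrez identifier in RefSeq (GRCm38.p6). Of the probe sets 21640 had 1 symbol, 1321 several and 11799 none listed. Of the first, 21553 were found in RefSeq and 87 were left as annotated. Each gene took its probe set of highest mean. Genes were kept with at least 3 arrays above the 40th percentile of their own array, which removed 4757 of 19937.

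One limma fit (limma 3.58.1, R 4.3.3) had 1 mean per group and array weights, with 20 residual degrees of freedom. The moderated tests, all two-sided, were adjusted over 15180 genes (Benjamini-Hochberg). Of 24 comparisons 6 were added after the data were seen: stage and sex within Rnf2delta, and the stage effect between sexes. The fit was also run on simulated data, as a check that the mean estimate met an added change. That run is no test of the calls reported here. Alternatives were equal weights, quantile normalization, the mean of a gene's probe sets, no filter, a stricter filter (60th percentile), the compared groups alone, the same with a replicate block, leaving out the 6 E12.5 female arrays, and leaving out each array. Each measured member has 1 probe set, so the mean of probe sets could reach it only through other genes. Figures were drawn with matplotlib 3.10.9.

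Members, gene lists and tests were chosen with earlier results of these data known. All members are named, with up to 4 genes past the threshold per list and comparison by size of change, the 3 genes most like each of the 3 members of widest range, Rnf2 and Ring1. Ring1 had no call in any comparison. Replicate numbers were checked for pairing by the correlation of deviations from group means: in 1 of 17 comparisons, Rnf2delta against control E11.5 males, all 3 correlations exceeded 0.1 (0.16, 0.124 and 0.104). There the numbers pair the samples by that rule, from the data and not the labels, and the block changed no call of a member. In Rnf2delta against control E12.5 males the correlations were 0.184, 0.096 and 0.293, so 1 fell just short of the rule. In that comparison the block brought Pmaip1 past the threshold (0.71, limma, adjusted p = 0.029). Whether the numbers pair those samples is not settled by these values. Promoters, found for 9 of the 10 genes, came from the RefSeq promoter table, and 4 are shown.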

Additional observations from a re-analysis of the deposited data

Results flagged for a closer look

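The stage effect on Pmaip1 in control germ cells differed between the sexes when the difference itself was tested. At E12.5 against E11.5 female minus male was -1.72 ± 0.44 (limma, adjusted p = 0.026): the change was 0.26 ± 0.36 in females and 1.98 ± 0.25 in males. This call was lost in 8 of 12 omissions of a single array (adjusted p up to 0.13). At E13.5 against E11.5 it was -2.85 ± 0.37 (adjusted p = 8.4e-06): the change was 0.21 ± 0.27 in females and 3.06 ± 0.25 in males, and it was kept in all 12 such omissions. Both tests were added after the data were seen and share the E11.5 controls. No group has more than 3 arrays, so single far arrays within a group were not screened.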

How the results depend on the processing

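Counts of members past the threshold moved by over 1.5 times in these settings. With equal array weights the count was 1 (against 0) for Rnf2delta against control in E12.5 females. It was 2 (against 1) for E13.5 against E12.5 in control females and 1 (against 2) for female against male at E13.5. With the same weights the counts over all genes were 1502 (against 254), 3309 (against 2184) and 2471 (against 3458), in that order. Each of these member counts thus moved in the same direction as its background. Quantile normalization gave 2 (against 1) for E13.5 against E12.5 in control females and 1 (against 0) for female against male in Rnf2delta at E11.5. The mean of probe sets gave 2 (against 1) for E13.5 against E12.5 in control males, and no filter gave 1 (against 2) for female against male at E13.5. The stricter filter gave 0 for E13.5 against E12.5 in control females, since Bcl2 was no longer tested, and 2 (against 1) in control males, 2 (against 1) for E12.5 against E11.5 in Rnf2delta males and 5 (against 2) for the F-test over groups. The compared groups alone gave 0 (against 1) for E13.5 against E12.5 in females and in males and for E12.5 against E11.5 in Rnf2delta males, and 1 (against 2) for female against male at E13.5. Other than where fewer genes were tested or fewer arrays entered the fit, the cause was not tested.

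With the replicate number as a block in a fit of the compared groups, the count was 1 (against 0) for Rnf2delta against control in E12.5 males, where Pmaip1 had a change of 0.71 (adjusted p = 0.029), 0 (against 1) for E13.5 against E12.5 in females and in males, and 1 (against 2) for female against male at E13.5. It also ended the call of Bcl2l11 at E13.5 against E11.5 in control males (-0.4, adjusted p = 0.072), and no other call of a member changed with it. The F-test over all groups was not run on compared groups or with the block, since it uses every group.

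Leaving out 1 array at a time gave 0 to 2 members for E12.5 against E11.5 in Rnf2delta males, 1 to 3 for E13.5 against E11.5 in females, 0 for E13.5 against E12.5 in females and 0 to 1 in males, 1 to 2 for female against male at E13.5, 0 to 1 for female against male in Rnf2delta at E11.5, 0 to 1 and 1 to 2 for the stage effect between sexes at E12.5 and E13.5, and 2 to 4 for the F-test. The count was 2 to 3 for E13.5 against E11.5 in males and kept its value in the other comparisons. The change of Pmaip1, never near a call, reversed sign at E13.5 against E12.5 in control females without 1 array (-0.19 to 0.1; 0.01 without control E12.5 female replicate 3 and 0.1 without control E13.5 female replicate 2), and at E12.5 against E11.5 in Rnf2delta females without 1 array (-0.16 to 0.14, the highest without Rnf2delta E12.5 female replicate 2).

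Counts over all genes, which give the background shares, depended on the weights. Rnf2delta against control called 157 genes in E11.5 females, 344 in E11.5 males, 254 in E12.5 females and 285 in E12.5 males, against 84, 109, 1502 and 146 with equal weights, and 62 in E12.5 females with the compared groups alone. E12.5 against E11.5 called 1604 genes in control females (814 to 2853 over the settings that keep every compared array) and 1241 in males (397 to 1481). E13.5 against E12.5 called 2184 in females (1638 to 3309) and 456 in males (167 to 565), and E13.5 against E11.5 called 2891 in males (1664 to 3022). Female against male called 117 at E11.5 (38 to 162) and 1876 at E12.5 (1054 to 2892) in controls, and 108 (20 to 164) and 1934 (1258 to 2303) in Rnf2delta. E12.5 against E11.5 in Rnf2delta males called 443 (34 to 626), and the stage effect between sexes 414 (162 to 507) and 1606 (802 to 1767). The genotype effect between sexes at E12.5 called 5 (45 with equal weights), and between stages in females 6 (22 with equal weights). Single arrays also moved these counts. Without 1 array Rnf2delta against control called 72 to 120 genes in E11.5 females, 139 to 290 in E11.5 males, 88 to 354 in E12.5 females and 68 to 313 in E12.5 males, and E12.5 against E11.5 in Rnf2delta males called 15 to 568. The lowest counts came without control E11.5 female replicate 2, control E11.5 male replicate 3, Rnf2delta E12.5 female replicate 1 and, in the last 2 comparisons, Rnf2delta E12.5 male replicate 2, so these background shares are loose.

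With 3 arrays a group, changes of Bbc3, Bak1 and Bcl2, near the low end of signal, are compressed by the scale, while Pmaip1 had the largest SE of the members in the mean of the 4 strata (0.15). Amplified RNA of 500 cells and unknown normalization steps limit levels to comparisons within a probe set.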
